A study of Homo sapiens with 20 samples.

Results

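The genes described here are 10 genes of the circadian clock, chosen by name: PER1, PER2, PER3, CRY1, CRY2, CLOCK, NR1D1, NR1D2, DBP and BHLHE40. They are 10 of the 60271 genes in the deposited tables, and all 10 passed the filter on low counts that kept 16522 genes. In most human cells the clock is a feedback loop of transcription. A heterodimer of CLOCK (or its paralog NPAS2) with ARNTL, also called BMAL1, binds the E-box, a short DNA element, and activates the PER and CRY genes, whose proteins return to the nucleus and repress that heterodimer. The nuclear receptors NR1D1 and NR1D2 (REV-ERB alpha and beta) repress ARNTL and form a linked loop, DBP activates genes through the D-box, and BHLHE40 (DEC1) competes for E-boxes as a repressor. Several of these genes are also known to respond directly to serum, hormones and growth factors.

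The libraries come from MDA-MB-468, 1 human breast cancer cell line of the triple-negative type, with high levels of the EGF receptor. Untreated control cells were compared with cells given 50 ng/mL epidermal growth factor (EGF), an inducer of the epithelial-mesenchymal transition in this line, for 12, 24, 48 or 72 h. Each of the 5 groups had 4 biological replicates, which makes 20 libraries. All groups, controls included, were grown for 24 h after seeding and then kept without serum for 24 h before EGF was first added, and no other allele or agent is described. The groups were seeded and harvested together and differed in when EGF was added, so the 24, 48 and 72 h groups received EGF at clock times that differ by multiples of 24 h, and the 12 h group did not. Harvest fell at 1 time for all groups. With 4 durations and 1 harvest, a rhythm cannot be resolved. For the 12 h group, the duration of EGF cannot be told apart from the clock time at which it was added. Under a shared harvest, shorter durations of EGF began after a longer time without serum and in older cultures. In every EGF group the duration therefore cannot be told apart from the time without serum and the age of the culture when EGF was added.

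The question was how the level of each clock gene changed with EGF, against the control and from each time point to the next. Depth was 15611961 to 25856953 counts per library, and mitochondrial genes held 7.69 to 16.9% of counts, with 9.03 to 12.6% in the control, 7.69 to 11.3% at 12 h, 11.1 to 13.8% at 24 h and 12.3 to 16.4% at 72 h. The highest share, 16.9%, was that of EGF 48 h replicate 2, while the others of its group held 9.83 to 12.1%. In TMM-normalized counts per 1000000 (CPM), KRT8, KRT18, KRT19, EPCAM and CDH1, which mark epithelial cells, summed to between 1408 and 1774 CPM in the control libraries. They summed to 6865 to 7332 CPM at 12 h, 3453 to 4275 CPM at 24 h, 1555 to 1696 CPM at 48 h and 2186 to 2589 CPM at 72 h. At 12 h all 5 were higher than the control at an adjusted p under 0.05 in edgeR, as were 32.9% of all genes. Later, CDH1 was lower at 24, 48 and 72 h and EPCAM at 48 and 72 h. KRT8 and KRT18 were higher at 24 and 72 h, and KRT19 at 24 h. As for the triple-negative label, PGR had no counts in any library, ESR1 was at 1.91 to 6.53 CPM and ERBB2 at 7.79 to 24.6 CPM. Of 7 markers of fibroblasts, endothelial cells and leukocytes, 4 failed the low-count filter, and the 7 together summed to 7.26 to 10.6 CPM in control libraries, 10.2 to 11.5 CPM at 12 h and 18.03 to 19.4 CPM at 72 h. The EGF feedback genes DUSP6, SPRY2, SPRY4 and PHLDA1 rose at all 4 times, where 32.9, 29.2, 24 and 30.6% of all genes were higher. Of 5 proliferation markers, 4, 2, 4 and 5 fell at the 4 times in order, where 36.5, 29.6, 21.8 and 31% of all genes were lower. Of these falls, 2, 1, 0 and 4 were of at least 1.5-fold. The share of all genes at that fold is not given here, so these counts cannot be read as many or few. What part the mitochondrial share, the keratins or proliferation have in the values of the clock genes was not tested. Fewer cells that express a gene and less RNA per cell cannot be told apart in these bulk libraries.

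RefSeq promoter windows on GRCh38.p14, from 250 bases before to 50 bases after each start site, were found for all 10 genes, in 14 windows. They were searched on both strands for the E-box CACGTG, the E'-box CACGTT, the D-box TTATGTAA or TTACGTAA, the REV-ERB and ROR core TAGGTCA and the cAMP response element TGACGTCA. CACGTG, TTACGTAA and TGACGTCA read alike on both strands, and no match in the 10 genes overlapped another. The stretches that hold a match are shown because they let the 10 genes be compared by the elements the loop is known to use. Each is 30 bases on the strand of the gene, with the match in capitals, as AACGTG where an E'-box and as TTACATAA where a D-box lies on the other strand.
PER1 E-box, chr17:8152560-8152589, minus strand: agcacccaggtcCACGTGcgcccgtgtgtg
PER2 E'-box, chr2:238288790-238288819, minus strand: ggcgcgcgcggtCACGTTttccactatgtg
PER2 D-box, chr2:238288595-238288624, minus strand: cccgctgcggcTTACGTAAccgccgccggc
PER3 D-box, chr1:7784103-7784132, plus strand: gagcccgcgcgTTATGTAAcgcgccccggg
CRY1 E'-box, chr12:107093621-107093650, minus strand: acacacttcagaAACGTGaggtgccggtgg
CRY2 E'-box, chr11:45847275-45847304, plus strand: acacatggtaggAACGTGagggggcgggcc
CRY2 REV-ERB and ROR core, chr11:45847398-45847427, plus strand: gttgcggcgtcaTAGGTCActgggcgggct
NR1D1 E'-box, chr17:40100740-40100769, minus strand: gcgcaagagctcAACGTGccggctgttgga
NR1D2 D-box, chr3:23945916-23945945, plus strand: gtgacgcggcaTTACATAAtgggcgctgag
NR1D2 first E-box, chr3:23945954-23945983, plus strand: ggcgggcggggaCACGTGaggccgctcggc
NR1D2 second E-box, chr3:23946004-23946033, plus strand: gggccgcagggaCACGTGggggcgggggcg
BHLHE40 E-box, chr3:4979187-4979216, plus strand: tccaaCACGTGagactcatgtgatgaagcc
CLOCK E'-box, chr4:55546102-55546131, minus strand: tcaccactcgggCACGTTtggagcagcgcc

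An E-box was in a window of 3 of the 10 genes, against 8.77% of the 27305 genes with a window, and an E'-box in 5 of 10, against 6.44%. A D-box was in 3 of 10, against 1.27% of genes, and the REV-ERB and ROR core in 1, against 2.29%. No window of the 10 genes held TGACGTCA, which 2.25% of genes had, and the window of DBP held none of the 5 motifs. A match is a description of letters and no evidence of binding, and elements outside the window were not searched.

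**Figure D1:**
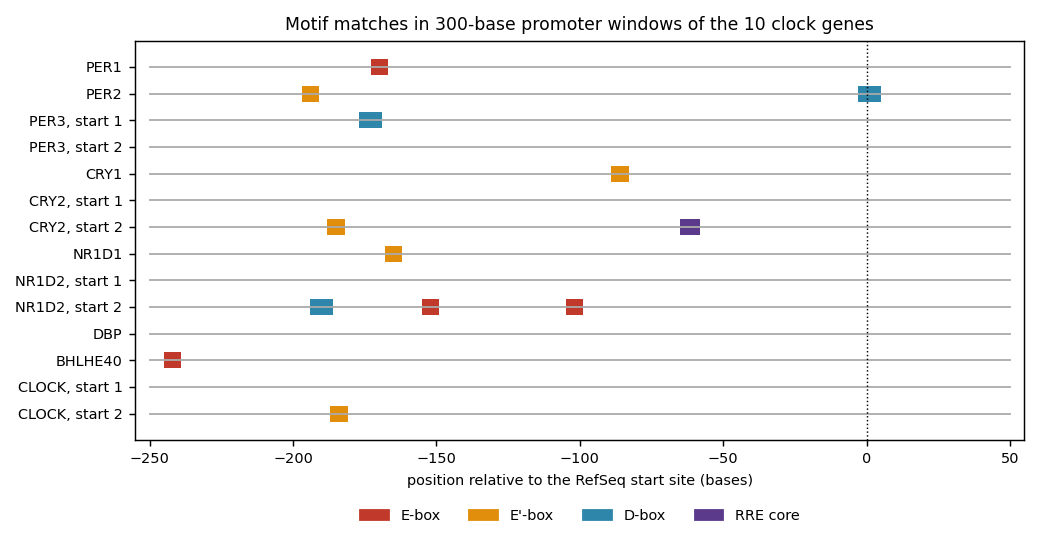
Matches to 4 motifs in the 14 promoter windows of the 10 clock genes. The horizontal axis is the distance in bases from the RefSeq start site, each grey line is 1 window and each coloured block 1 match. PER1, NR1D2 and BHLHE40 have E-boxes, PER2, PER3 and NR1D2 have D-boxes, and the window of DBP is empty.

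After 12 h of EGF, 9 of the 10 genes differed from the control, against 69.4% of all genes tested: PER1, PER2, PER3, CRY2, NR1D2 and DBP were lower (36.5% of all genes were) and CRY1, NR1D1 and BHLHE40 higher (32.9% of all genes were). At 24 h, 5 genes were higher and none lower, where 58.8% of all genes were called, 29.2% higher and 29.6% lower. After 48 h there were again 5 higher and none lower, where 45.8% of all genes were called, 24% higher and 21.8% lower. At 72 h, 4 were higher and 2 lower, where 61.6% of all genes were called, 30.6% higher and 31% lower. A gene was called at an adjusted p under 0.05 in edgeR's quasi-likelihood test, adjusted over the 16522 genes by Benjamini and Hochberg's method. The median log2 fold change of the 10 genes over these times in order was -0.64, 0.30, 0.30 and 0.23, while that of all genes lay between -0.05 and 0.01. No library of the EGF group overlapped the controls for 7, 3, 4 and 6 of the 10 genes at these times. The same held for 60.8, 48.2, 34.9 and 52% of all genes.

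The comparisons at 12 h depend on how libraries are scaled. With TMM normalization, 5433 genes were higher and 6032 lower at 12 h. Scaling by library size alone moved the median log2 fold change of all genes from -0.05 to -0.34 at 12 h and from -0.01 to -0.15 at 24 h, and gave 3581 genes higher and 8275 lower at 12 h. Of the 10 clock genes, 3 were then higher and 1 lower at 24 h, and 2 higher and 7 lower at 12 h. Upper-quartile scaling gave the same 2 and 7 at 12 h, with an all-gene median of -0.22. The log2 fold changes below are on the TMM scale, and calls of the 10 genes that changed with scaling are given beside each comparison.

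**Figure D2:**
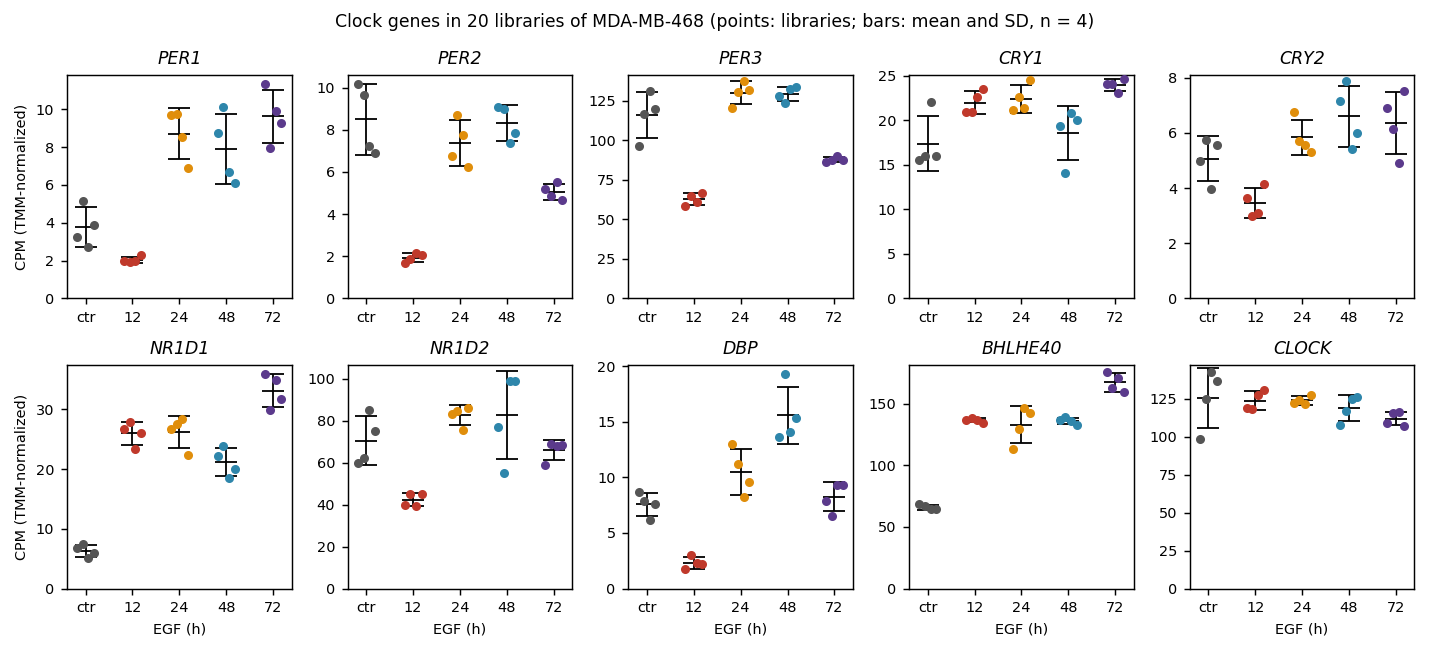
Level of each of the 10 clock genes in the 20 libraries, in TMM-normalized CPM on linear axes that start at 0, for the control (ctr) and each duration of EGF in hours. Points are libraries, and black bars give the mean and SD of 4. PER1, PER2, PER3, NR1D2 and DBP are lowest at 12 h with no overlap with any other group. NR1D1 and BHLHE40 lie above the controls at every time, and each treated group of CLOCK overlaps the controls.

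The 3 PER genes encode the PERIOD proteins, which with the cryptochromes form the repressor complex of the loop. All 3 were lowest at 12 h. PER1 (ENSG00000179094, chr17:8140472-8156506, GRCh38, minus strand) was at 3.26, 5.17, 2.73 and 3.89 CPM in the control libraries and at 1.97, 1.91, 1.99 and 2.30 CPM at 12 h. It reached 9.69, 9.77, 8.53 and 6.88 CPM at 24 h, 8.76, 10.1, 6.69 and 6.12 CPM at 48 h, and 11.4, 7.96, 9.94 and 9.26 CPM at 72 h. The 12 h libraries all lay below the controls, and every library of the later times lay above them. PER1 fell by 0.88 on the log2 scale at 12 h (SE 0.207, adjusted p = 0.00058) and then stood above the control, 2.31-fold at 24 h (log2 fold change 1.21, adjusted p = 4.1e-06), by 2.09-fold at 48 h and by 2.56-fold at 72 h. From 12 to 24 h it rose 4.25-fold (log2 fold change 2.09, SE 0.197, adjusted p = 8.4e-09). The fall at 12 h rests on 35 to 48 counts per library, and it missed the threshold when the factors per gene behind the deposited normalized values were used (log2 fold change -0.52, adjusted p = 0.088).

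PER2 (ENSG00000132326, chr2:238244038-238290102, minus strand) gave 10.2, 9.67, 7.21 and 6.92 CPM in the control libraries and 1.67, 1.85, 2.15 and 2.06 CPM at 12 h. Its libraries were at 6.77, 8.70, 7.76 and 6.25 CPM at 24 h, at 9.09, 8.999, 7.37 and 7.84 CPM at 48 h, and at 5.20, 4.84, 5.53 and 4.66 CPM at 72 h. Both the 12 h and the 72 h libraries lay below every control, while those of 24 and 48 h overlapped them. PER2 was 4.39-fold lower at 12 h (log2 fold change -2.13, SE 0.153, adjusted p = 1.3e-11) and 1.68-fold lower at 72 h (log2 fold change -0.75, adjusted p = 5.2e-05). The log2 differences at 24 h (-0.21, 95% interval -0.48 to 0.07) and 48 h (-0.03, -0.30 to 0.24) missed the threshold. That at 24 h passed it under scaling by library size alone (-0.35, adjusted p = 0.027), and both were above 0 with the factors per gene (0.14 and 0.10). PER2 rose 3.80-fold from 12 to 24 h and fell by 0.71 on the log2 scale from 48 to 72 h (adjusted p = 0.00026).

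PER3 (ENSG00000049246, chr1:7784320-7845177, plus strand) was the most abundant of the 3 per length, with a mean of 14.4 CPM per kb of merged exons in the control against 1.24 for PER2 and 0.538 for PER1. Its control libraries were at 96.5, 117, 132 and 120 CPM and those at 12 h at 58.6, 64.7, 60.9 and 67.0 CPM. It returned to 121, 131, 138 and 132 CPM at 24 h and 128, 124, 133 and 134 CPM at 48 h, and was at 86.6, 87.5, 90.0 and 87.4 CPM at 72 h. As for PER2, the 12 and 72 h libraries lay below all controls. PER3 was 1.85-fold lower at 12 h (log2 fold change -0.89, SE 0.0752, adjusted p = 2.5e-10) and 1.32-fold lower at 72 h (adjusted p = 5.3e-05). At 24 h (log2 fold change 0.16, 95% interval 0.01 to 0.32, adjusted p = 0.061) and 48 h (0.16, 0.0030 to 0.31, adjusted p = 0.089) it missed the threshold, and it passed at both times when control replicate 3 was left out (0.23 and 0.22) and at 24 h without EGF 24 h replicate 1 (0.20). Under 4 of the 10 alternatives it was called at 24 h, and under 3 at 48 h. It rose 2.07-fold from 12 to 24 h and fell by 0.56 from 48 to 72 h. UTS2, which shares 10.7% of the exon bases of PER3 on the opposite strand, had at most 1 count per library.

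The cryptochromes CRY1 and CRY2 are the other members of the repressor complex, and the 2 genes differed. CRY1 (ENSG00000008405, chr12:106991364-107093829, minus strand) was at 15.5, 15.9, 22.02 and 16.004 CPM in control libraries, 21.0, 20.9, 22.5 and 23.5 CPM at 12 h and 21.2, 22.5, 21.3 and 24.6 CPM at 24 h. It was at 19.3, 14.1, 20.7 and 19.99 CPM at 48 h and 24.1, 24.0, 23.1 and 24.6 CPM at 72 h. Control replicate 3 lay within the range of the treated libraries, and only the 72 h libraries were all above every control. CRY1 rose 1.26-fold at 12 h (log2 fold change 0.34, SE 0.112, adjusted p = 0.0097), 1.29-fold at 24 h (adjusted p = 0.007) and 1.38-fold at 72 h (adjusted p = 0.00097). At 48 h the log2 difference was 0.09 (95% interval -0.14 to 0.33). The call at 12 h was lost with scaling by library size (0.06), upper-quartile scaling (0.18) and factors per gene (0.30, adjusted p = 0.051), and that at 24 h with scaling by library size (0.22). CRY1 fell by 0.27 from 24 to 48 h (adjusted p = 0.046), a call lost under 5 of the 10 alternatives and in 13 of the 20 fits that each left out 1 library, and was 1.29-fold higher at 72 than at 48 h (adjusted p = 0.012), a call lost without EGF 48 h replicate 2 (log2 fold change 0.26, adjusted p = 0.054) and with scaling by library size (0.28, adjusted p = 0.054). The 7 omissions that kept the call from 24 to 48 h were those of the 4 control libraries, EGF 24 h replicate 1 and EGF 48 h replicates 3 and 4, and without EGF 48 h replicate 2, the library with the highest mitochondrial share, the value was -0.16.

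CRY2 (ENSG00000121671, chr11:45847118-45883248, plus strand) gave 4.97, 5.76, 3.97 and 5.57 CPM in the control libraries and 3.64, 3.00, 3.09 and 4.16 CPM at 12 h. Later libraries were at 6.77, 5.71, 5.58 and 5.32 CPM (24 h), 7.15, 7.87, 5.43 and 5.98 CPM (48 h) and 6.90, 6.14, 4.91 and 7.54 CPM (72 h). At 12 h, 3 of 4 libraries lay below every control. CRY2 was 1.45-fold lower at 12 h (log2 fold change -0.54, SE 0.161, adjusted p = 0.0048), where CRY1 was higher, and this call narrowly missed the threshold with the factors per gene (-0.55, adjusted p = 0.053). After 48 h it stood 1.30-fold above the control (log2 fold change 0.38, adjusted p = 0.046), but this was lost under 3 of the 10 alternatives and in 9 of the 20 fits that left out 1 library. The libraries left out were control replicates 1 and 3, EGF 12 h replicate 1, EGF 24 h replicates 2 and 3, EGF 48 h replicates 1 and 2, and EGF 72 h replicates 1 and 2, with a lowest value of 0.27. At 24 h (0.21, 95% interval -0.11 to 0.53) and 72 h (0.33, 0.01 to 0.65, adjusted p = 0.065) CRY2 missed the threshold, and it passed at 72 h without control replicate 2 (0.40) or EGF 72 h replicate 3 (0.44) and under 3 of the 10 alternatives. From 12 to 24 h it rose 1.68-fold (adjusted p = 0.00045).

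The REV-ERB genes also went in opposite directions at 12 h. NR1D1 (ENSG00000126368, chr17:40092787-40100725, minus strand) was at 6.78, 7.40, 5.04 and 5.96 CPM in the control libraries and at 26.8, 27.8, 23.4 and 26.0 CPM at 12 h. The libraries gave 26.6, 27.5, 28.3 and 22.4 CPM at 24 h, 22.2, 23.9, 18.5 and 19.9 CPM at 48 h, and 35.9, 29.9, 35.0 and 31.7 CPM at 72 h. All 16 treated libraries lay above all 4 controls. NR1D1 rose 4.13-fold at 12 h (log2 fold change 2.05, SE 0.114, adjusted p = 1.4e-13), 4.16-fold at 24 h, then 3.35-fold at 48 h and, at 72 h, 5.27-fold (log2 fold change 2.40, adjusted p = 8.2e-15), and these 4 calls held under all 10 alternatives. It fell by 0.31 from 24 to 48 h (adjusted p = 0.015) and rose 1.57-fold from 48 to 72 h (adjusted p = 2.6e-05). The fall missed the threshold without EGF 24 h replicate 3 (-0.27) or EGF 48 h replicate 3 (-0.25) and with scaling by library size (-0.16) or upper quartile (-0.25). THRA, on the opposite strand, shares 9.49% of the exon bases of NR1D1. It was at 5.22 to 6.10 CPM in control libraries against 4.97 to 7.19 CPM at 12 h, and it fell at 24 h (log2 fold change -0.57) and 72 h (-0.63), where NR1D1 rose. The strand setting of the counting is not given in the sources used here.

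NR1D2 (ENSG00000174738, chr3:23945260-23980618, plus strand) was at 59.7, 62.1, 85.0 and 75.2 CPM in the control libraries and at 40.0, 45.0, 39.4 and 45.0 CPM at 12 h. At later times its libraries gave 83.3, 84.8, 75.7 and 86.2 CPM (24 h), 77.1, 55.2, 98.9 and 98.9 CPM (48 h) and 59.0, 68.7, 67.8 and 68.5 CPM (72 h). The 12 h libraries lay below every other library. NR1D2 was 1.67-fold lower at 12 h (log2 fold change -0.74, SE 0.138, adjusted p = 6.5e-05) and then rose 1.95-fold from 12 to 24 h. The log2 differences from the control at 24 h (0.23, 95% interval -0.06 to 0.51), 48 h (0.23, -0.05 to 0.51) and 72 h (-0.10, -0.38 to 0.19) missed the threshold. That at 48 h passed it without EGF 48 h replicate 2 (0.38, adjusted p = 0.0054), the library at 55.2 CPM and with 16.9% mitochondrial counts, and those at 24 and 48 h passed it with the factors per gene (0.30 and 0.42). Per length, NR1D2 was above NR1D1 in the control, with a mean of 12.1 against 2.27 CPM per kb, and at 12 h the order was the other way round, with 7.28 against 9.37 CPM per kb.

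DBP (ENSG00000105516, chr19:48630030-48637438, minus strand), the D-box activator and a gene driven by the E-box loop in other cells, had the widest range of the 10. It was at 8.69, 7.86, 6.19 and 7.64 CPM in the control libraries and at 1.77, 3.00, 2.26 and 2.20 CPM at 12 h. Its libraries were at 13.0, 11.2, 8.21 and 9.57 CPM at 24 h, 13.6, 19.3, 14.1 and 15.3 CPM at 48 h, and 7.90, 6.54, 9.33 and 9.32 CPM at 72 h. All 12 h libraries lay below and all 48 h libraries above the libraries of every other group, and those of 72 h overlapped the controls. DBP was 3.29-fold lower at 12 h (log2 fold change -1.72, SE 0.181, adjusted p = 1.0e-08), 1.39-fold higher at 24 h (0.47, adjusted p = 0.012) and 2.05-fold higher at 48 h (1.04, SE 0.152, adjusted p = 5.5e-06). At 72 h the log2 difference was 0.12 (95% interval -0.20 to 0.45). It rose 4.57-fold from 12 to 24 h and 1.48-fold from 24 to 48 h (adjusted p = 0.0031), and fell by 0.92 from 48 to 72 h (adjusted p = 5.0e-05). The call at 24 h was lost without EGF 24 h replicate 1 (0.35), with scaling by library size (0.33) and with the factors per gene (0.42). SPHK2, which shares 10.1% of the exon bases of DBP on the opposite strand, had group means of 1.00 to 1.85 CPM.

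BHLHE40 (ENSG00000134107, chr3:4979116-4985323, plus strand), a repressor that acts at E-boxes and is known as an early response gene, was at 68.2, 66.6, 64.2 and 64.5 CPM in the control libraries and at 137, 138, 137 and 134 CPM at 12 h. It was at 113, 129, 147 and 142 CPM at 24 h, 137, 139, 136 and 133 CPM at 48 h, and 176, 163, 171 and 159 CPM at 72 h. Every treated library lay above every control. BHLHE40 rose 2.07-fold at 12 h (log2 fold change 1.05, SE 0.0669, adjusted p = 1.6e-12), 2.02-fold at 24 h, then 2.07-fold at 48 h and, at 72 h, 2.54-fold (1.34, adjusted p = 2.1e-14). From 48 to 72 h it rose 1.23-fold (adjusted p = 0.00098). Per length it was the most abundant of the 10 in the control, at 17.2 CPM per kb.

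CLOCK (ENSG00000134852, chr4:55427903-55547138, minus strand), the activator of the loop and a histone acetyltransferase, was at 98.4, 125, 142 and 136 CPM in the control libraries and 119, 118, 127 and 131 CPM at 12 h. It was at 122, 124, 121 and 127 CPM at 24 h, 108, 117, 125 and 126 CPM at 48 h, and 109, 115, 116 and 107 CPM at 72 h. Each treated group overlapped the controls. The log2 differences were -0.02 both at 12 and at 24 h (95% interval -0.19 to 0.15 in each), -0.08 at 48 h (-0.25 to 0.10) and, after 72 h, -0.17 (-0.34 to 0.01, adjusted p = 0.089). None passed the threshold. At 12 h the direction turned with scaling: the log2 difference was -0.30 with library size alone (adjusted p = 0.0023), -0.18 with upper-quartile scaling (adjusted p = 0.041) and 0.42 with the factors per gene (adjusted p = 0.0039). Scaling by library size and by upper quartile also called CLOCK lower at 72 h (-0.24 and -0.19). CLOCK was also called lower at 48 and 72 h when control replicate 1, at 98.4 CPM, was left out. The log2 differences were then -0.18 (adjusted p = 0.035) and -0.27 (adjusted p = 0.0016).

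**Figure D3:**
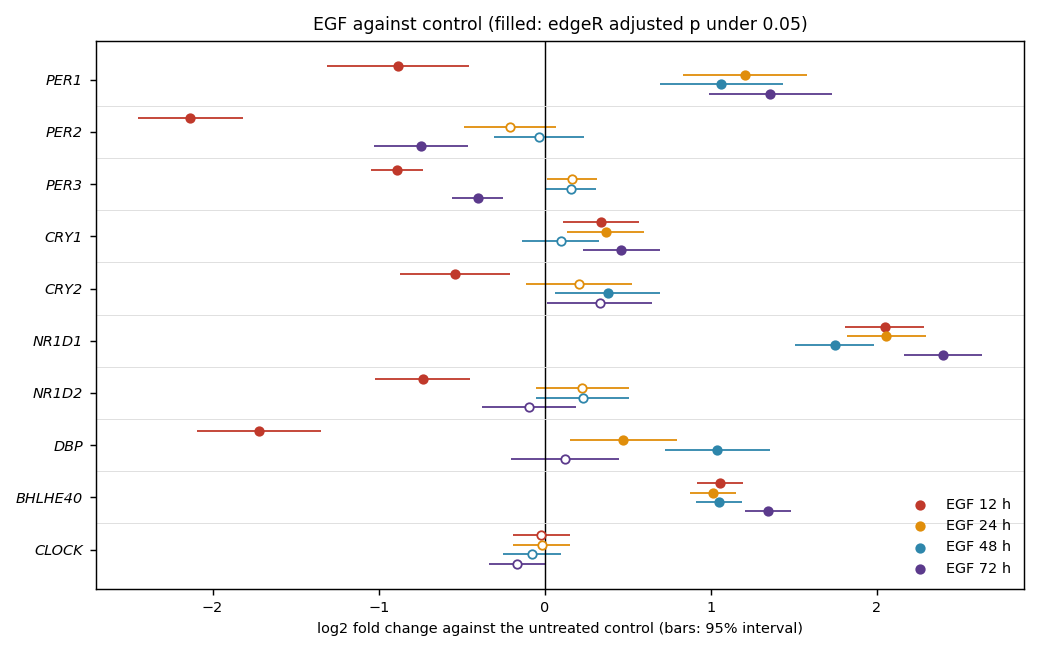
Log2 fold change of each clock gene against the untreated control at the 4 times of EGF (horizontal axis), with 95% intervals as bars. Filled points passed an adjusted p under 0.05 in edgeR. PER2 and DBP are farthest below 0 at 12 h, at -2.13 and -1.72, NR1D1 lies between 1.74 and 2.40 at all times, and the 4 points of CLOCK are open.

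Set against the mean of 24, 48 and 72 h, the 12 h level was lower for the same 6 genes, PER1, PER2, PER3, CRY2, NR1D2 and DBP, and higher for none of the 10. Of all genes, 69.8% were called in this comparison, 32.9% higher and 36.9% lower. The log2 differences were -2.26 for DBP (SE 0.159), -2.09 for PER1, -1.80 for PER2, -0.86 for PER3, -0.85 for NR1D2 and -0.85 for CRY2 (adjusted p = 7.5e-06, the highest of the 6). In each of these 6 genes the 12 h libraries lay below all 12 libraries of the later times. For 36.5% of all genes these libraries did not overlap. BHLHE40, at -0.08, was called lower in this comparison with scaling by library size, with upper-quartile scaling and with at least 10 counts in every library (lowest value -0.30), and without EGF 24 h replicate 1. Scaling by library size also called NR1D1 lower (-0.02, lowest -0.23), and the factors per gene called CLOCK higher (0.07, highest 0.34). From 12 to 24 h the same 6 genes rose and none fell, where 53.7% of all genes were called, 27.9% higher and 25.9% lower, and the libraries of these 6 did not overlap either (53.5% of all genes). These 2 comparisons and that with the control share the 12 h libraries and are not independent.

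From 24 to 48 h, DBP rose and CRY1 and NR1D1 fell, where 50.2% of all genes were called, 25.9% higher and 24.3% lower. The libraries of DBP and CRY1 did not overlap between these times (44.6% of all genes). The calls depended on scaling, though DBP, CRY1 and NR1D1 kept their direction under the 10 alternatives. With library size alone, where 5948 genes were higher and 2337 lower against 4272 and 4020 with TMM, the calls of CRY1 and NR1D1 were lost and PER2 (0.18 with TMM, at most 0.33 over the alternatives) and BHLHE40 (0.03, at most 0.19) were called higher beside DBP. Upper-quartile scaling, and the omission of EGF 24 h replicate 3, each left only the call of DBP. From 48 to 72 h, CRY1, NR1D1 and BHLHE40 rose and PER2, PER3 and DBP fell, where 35.7% of all genes were called, 17.9% in each direction, with no overlap of the libraries in any of these 6 (35.1% of all genes). NR1D2 missed the threshold here (-0.33) and was called lower with scaling by library size, with upper-quartile scaling, with the factors per gene (-0.41 to -0.30 over the alternatives) and without EGF 48 h replicate 2. Scaling by library size, which also lost the call of CRY1, gave 2 higher and 4 lower.

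In the order of the 5 group means, 15 of the 40 pairs of neighbours differed at an adjusted p under 0.05. The same share over all genes was not computed, and the pairs were set by the order of the means then tested. The count therefore cannot be read as much or little separation. For PER1 the order was 12 h, control, 48 h, 24 h and 72 h, and the last 3 were not told apart. For PER2 it was 12 h, 72 h, 24 h, 48 h and control, and for PER3 12 h, 72 h, control, 48 h and 24 h. In neither were the last 3 told apart at this threshold. For PER3 the 95% intervals against the control were 0.01 to 0.32 at 24 h and 0.0030 to 0.31 at 48 h. The lowest group was 12 h for CRY2, NR1D2 and DBP as well, the control for CRY1, NR1D1 and BHLHE40, and 72 h for CLOCK. No pair of neighbours differed for CRY1 or CLOCK. The highest group mean was 6.76 times the lowest for DBP, 5.26 times for NR1D1, 4.72 times for PER1 and 4.40 times for PER2. It was 2.54 times for BHLHE40, 2.07 for PER3, 1.95 for NR1D2, 1.90 for CRY2, 1.38 for CRY1 and 1.12 for CLOCK.

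Of 24 other genes of the clock, 22 passed the filter (RORB and FBXL21P did not). Of these, 13 were higher and 8 lower at 12 h, and at the later times 12 and 7, 11 and 4, and 10 and 5. The genes called were thus 21, 19, 15 and 15 of 22, where 69.4, 58.8, 45.8 and 61.6% of all genes were called. All 3 partners and paralogs of CLOCK among the activators rose at 12 h, where 32.9% of all genes were higher. ARNTL2, a paralog of ARNTL, was at 21.9 to 28.3 CPM in control libraries and reached 254 to 282 CPM after 12 h, with log2 fold changes of 3.46, 2.92, 1.06 and 2.00 at the 4 times in order. NPAS2, the paralog of CLOCK, went from 22.8 to 29.5 CPM to 228 to 237 CPM, with 3.18, 2.90, 1.76 and 2.57. In both, every treated library lay above every control at every time. ARNTL itself rose by 0.65 on the log2 scale at 12 h and fell by 0.35 at 24 h, and it missed the threshold at 48 and 72 h. It is the partner of CLOCK and a target of the REV-ERB repressors, and ranged over 12.3 to 15.1 CPM in control libraries and 20.3 to 21.7 CPM after 12 h.

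RORA, a nuclear receptor that activates through the elements at which REV-ERB proteins repress, rose at all 4 times (log2 fold changes 1.70, 2.77, 1.39 and 2.63) from 0.402 to 0.982 CPM in the control. TEF and HLF belong with DBP to the PAR bZIP factors that act at the D-box, and NFIL3 represses there. TEF fell at 12 h (-1.98) and 72 h (-0.62) and rose at 48 h (0.45). HLF fell at all 4 times (-1.61, -0.71, -0.82 and -1.48). NFIL3 fell at 12 and 24 h by less than 1.5-fold. TEF, HLF and DBP were thus all lower than the control at 12 h, as were 36.5% of all genes.

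Among other repressors, BHLHE41 (DEC2), the paralog of BHLHE40, rose at all 4 times (0.52, 1.67, 1.74 and 1.65), and CIART, which inhibits the CLOCK heterodimer, fell at 12 h (-1.13) and rose at 24 h (0.49) and 48 h (0.79). Of 9 measured kinases, phosphatase subunits and ubiquitin enzymes that act on clock proteins, 6 rose and 2 fell at 12 h, where 32.9% of all genes were higher and 36.5% lower. At 24 h 5 rose and 2 fell, where 29.2% of all genes were higher and 29.6% lower. At 48 h 2 rose and 2 fell, against 24 and 21.8% of all genes. By 72 h 4 were higher and 1 lower, against 30.6 and 31%. The 4 and 5 of 9 called at the last times stood against 45.8 and 61.6% of all genes. The largest rise was that of CSNK1E, a casein kinase that phosphorylates PER proteins, by 1.57 at 12 h and 0.62 at 24 h. USP2, a deubiquitinase, fell by 0.94 at 12 h and by 1.09 at 24 h. Of 4 output genes, NAMPT, the rate-limiting enzyme of NAD salvage, rose at all times (0.46, 0.89, 0.46 and 1.28). TSC22D3, also known as a glucocorticoid target, fell at 12 h (-2.54), 24 h (-0.72) and 72 h (-0.91) and rose slightly at 48 h (0.32). WEE1, a cell cycle kinase, was lower and PPARA, a nuclear receptor, higher at all 4 times.

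**Figure D4:**
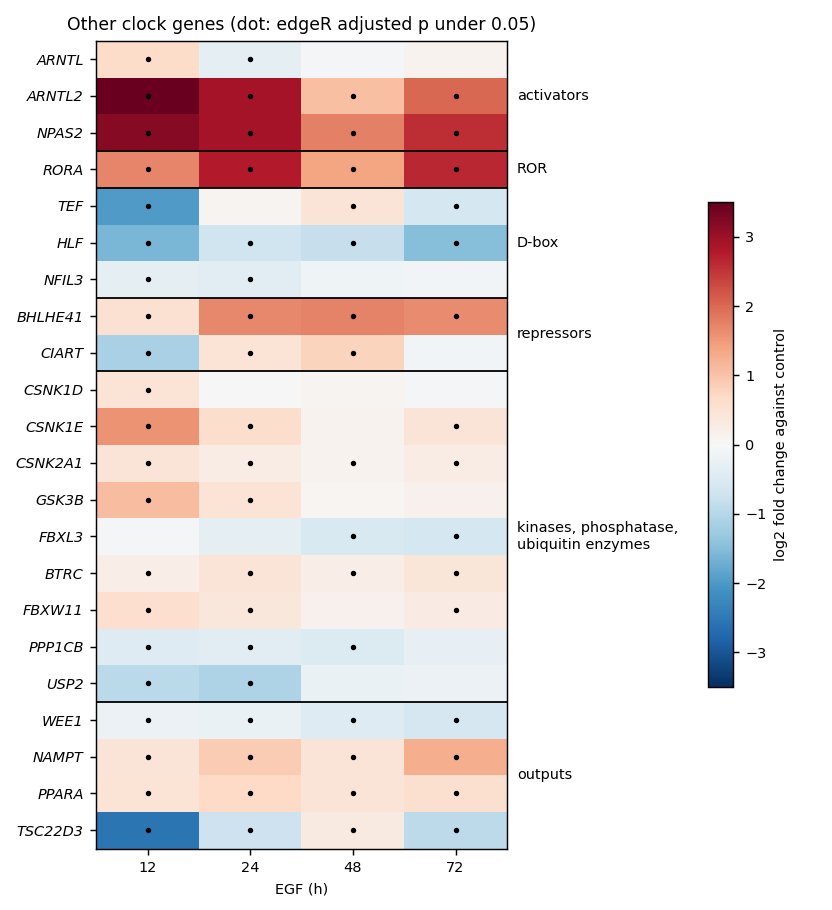
Log2 fold change against the control (colour, red higher and blue lower) of 22 other clock genes against the hours of EGF, grouped by role. A dot marks an adjusted p under 0.05 in edgeR. ARNTL2 and NPAS2 are the darkest red at 12 h, at 3.46 and 3.18, and TSC22D3 and TEF the darkest blue, at -2.54 and -1.98.

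Likeness of pattern was measured as the root mean square difference of the 5 centred group means of log2 CPM, over 7901 genes outside these lists. These are descriptions over 5 groups, with no test. The nearest genes were SEPTIN7P13 (0.16) and NEAT1 (0.18) for PER1, CU634019.5 (0.10) and YPEL1 (0.11) for PER2, and CLUAP1 (0.08) and CNTRL (0.10) for PER3. For CRY1 they were SKAP2 (0.03) and SEC16A (0.03), for CRY2 GARS1-DT (0.05) and MCF2L-AS1 (0.05), and for NR1D2 CEP57L1 (0.04) and BMS1P1 (0.07). They were SH3PXD2A-AS1 (0.10) and RBP7 (0.10) for NR1D1, AK7 (0.19) and SEPSECS (0.21) for DBP, and MBNL2 (0.06) and ABCA12 (0.07) for BHLHE40. For CLOCK they were UNG (0.12) and MRPL9 (0.12), since the search took only genes that varied over the groups. Among the 10 clock genes, PER3 and NR1D2 were the closest pair, at 0.11.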

How the data were processed

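RNA was prepared with the Lexogen Corall mRNA protocol and sequenced by the authors as single-end reads. Each library has 2 columns in the deposited tables, estimated counts given as whole numbers and normalized values. The authors made the normalized values, a score on the scale of counts, with DESeq2 by the SARTools pipeline on hg38, per the submitters' processing notes and the methods. The normalized scores differ from the counts by factors that vary between genes (SD 0.145 to 0.269 log2 over 9092 genes), which no source describes, and they entered an alternative only. The aligner, the counter and its use of strand and of molecular identifiers are not given in the sources used here. The 17 columns of the authors' own statistics (fold changes, p-values, dispersions and the like) were not used.

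Counts were fitted in edgeR 4.0.16 (R 4.3.3, limma 3.58.1) with filterByExpr, TMM normalization, 1 mean per group over all 20 libraries and robust quasi-likelihood dispersions. P-values were adjusted by Benjamini-Hochberg over 16522 genes. SEs and 95% intervals come from the same fit and are not adjusted, so an interval may leave out 0 where the adjusted p misses 0.05. Log2 fold changes used a prior count of 0.125. CPM are TMM-normalized counts per 1000000, and levels per kb use merged GENCODE 29 exons, which held 58036 of the 60271 identifiers. Alternatives were scaling by library size, upper quartile or DESeq2 size factors, factors per gene from the normalized values, DESeq2 1.42.0, a weaker and a stricter low-count filter, only the groups compared, a replicate block, non-robust dispersions and the omission of each library. The procedure was tested on simulated counts in which few genes changed, as many up as down. That setting does not address the scaling of the libraries at 12 h. Promoters are RefSeq windows on GRCh38.p14. The labels call the replicates biological without saying from what they came, so p-values measure the spread between these samples. No 2 libraries of a group agreed within sampling noise (chi-square per degree of freedom 3.53 to 57.5 over 30 pairs).

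The 10 genes, the lists and the tests were chosen with earlier results of these data known. Other clock genes were named with values where they passed 1.5-fold at an adjusted p under 0.05 at 2 or more of the 4 times. ARNTL, which did not, was added after its values were seen, as were the genes named with a direction only or for a list. The 2 genes nearest in pattern were named for each clock gene. Of the genes listed for the clock, 1 is not reported here.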

Additional observations from a re-analysis of the deposited data

Results flagged for a closer look

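In 2 of the 50 sets of 4 libraries (10 genes in 5 groups), 1 library stood apart by Dixon's criterion, which chance alone meets in about 1 of 20. CRY1 was at 22.02 CPM in control replicate 3 and between 15.5 and 16.004 CPM in the other controls. NR1D2 was at 59.0 CPM in EGF 72 h replicate 1 and between 67.8 and 68.7 CPM in the others of that group.

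For 3 genes the change against the control was called in opposite directions at different times, and the difference between the times passed the test as well. PER1 was below the control at 12 h and above it later, with log2 differences from 12 h of 2.09, 1.95 and 2.24 for 24, 48 and 72 h. DBP differed from 12 h by 2.19 at 24 h and by 2.76 at 48 h. CRY2 differed by 0.92 between 12 and 48 h, where its rise over the control at 48 h was lost on leaving out any of 9 single libraries.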

How the results depend on the processing

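The numbers of clock genes called against the control were 9, 5, 5 and 6 for 12, 24, 48 and 72 h, and stayed within 1.5 times of these under the 10 alternatives and the 20 omissions of 1 library. From 24 to 48 h the count of 3 fell to 1 with upper-quartile scaling and ran from 1 to 3 when single libraries were left out. Values that missed the threshold changed sign as follows. With the factors per gene, the log2 fold change was 0.14 for PER2 at 24 h, 0.10 for PER2 at 48 h, 0.014 for NR1D2 at 72 h and, for CLOCK, 0.42 at 12 h (then called), 0.14 at 24 h, 0.064 at 48 h and 0.039 at 72 h. With at least 10 counts in every library PER2 was at 0.0047 at 48 h. CLOCK at 12 h was at 0.0021 with DESeq2 size factors, 0.0020 with the DESeq2 Wald test, 0.017 without the filter and 0.0045 with only the 2 groups. Without single libraries, PER2 at 48 h ran from -0.12 to 0.064, CLOCK from -0.12 to 0.046 at 12 h and from -0.12 to 0.047 at 24 h, and NR1D2 at 72 h from -0.17 to 0.0055. The cause of these changes was not tested.

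The labels do not say whether replicate numbers pair the samples. Deviations correlated above 0.1 in 13 of 40 pairs with the same number and in 38 of 120 with different numbers. The correlations ran from -0.56 to 0.68 and from -0.62 to 0.56, so these counts neither show nor exclude a pairing. With the replicate number as a block, the counts became 9, 6, 6 and 7, the additions being PER3 at 24 h (0.17) and 48 h (0.16) and CRY2 at 72 h (0.33).

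PER1, PER2 and CRY2 had 33 to 295 counts per library and DBP 35 to 394, which limits the precision of their smaller differences. At 12 h DBP had 35 to 55 counts per library. Each group is 1 harvest of 1 line.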
